A study of Mus musculus with 12 samples.

Results

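The 8 genes described here are 6 caspases and 2 genes whose products control caspase activation: Casp1, Casp2, Casp4, Casp6, Casp8, Casp9, Cflar and Apaf1. They were taken by name from a list of caspases and their regulators, out of 5545 genes analysed, and all 8 passed the filter on low counts that left 2606 genes for testing. RNA-seq had been carried out on NK cells and ILC1, the innate lymphoid cells that lie closest to NK cells, from the livers of 6 female C57BL/6 mice (C57BL/6J in the study's methods). Lean mice (n = 3) had been weaned onto RM1 chow, and obese mice (n = 3) onto the obesogenic diet 824018, named for its 45% AFE fat, with condensed milk added. Mice stayed on their diet for 12 weeks. Both populations were sorted from each liver as lineage-negative NK1.1+ leukocytes, NK cells as CD49a-CD49b+ and ILC1 as CD49a+CD49b-, which gave 12 libraries in 4 groups of 3, made from 2 ng of RNA each. Mice carry the numbers 25, 26 and 27 within each diet, and the lean and the obese mouse of 1 number are different animals.

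Caspases are cysteine proteases that are made as inactive precursors. Initiator caspases are switched on when adaptor proteins bring them together, and they cleave executioner caspases, which dismantle the cell in apoptosis. Inflammatory caspases instead process cytokine precursors and open pores through gasdermin D. NK cells and ILC1 both kill target cells through these pathways, by granzymes and by death receptor ligands, and they depend on the same machinery for their own death. Transcript levels do not show whether a caspase precursor has been cleaved.

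None of the 8 genes was called different in any of 6 comparisons: ILC1 against NK cells averaged over both diets, in lean mice and in obese mice, obese against lean mice in NK cells and in ILC1, and the difference between diets of the ILC1 against NK change. A call needed a fold change over 2 and a p under 0.05 from edgeR's quasi-likelihood test, adjusted over the 2606 genes by the Benjamini-Hochberg method. Of all tested genes, 4.34% were called for ILC1 against NK cells averaged over diets, 2.3% in lean mice and 0.921% in obese mice. For the 3 comparisons that involve diet, 0.0% of the genes were called by this test, with 31, 277 and 155 genes at an unadjusted p under 0.05 for NK cells, ILC1 and the difference, respectively. DESeq2 called none of the 8 members either. It called 8.16%, 5.55% and 5.99% of the genes it tested for ILC1 against NK cells averaged, in lean and in obese mice, and 0.221%, 2.76% and 0.662% in the 3 comparisons that involve diet. With NK cells and ILC1 of 1 mouse treated as a pair, edgeR called 46, 21 and 0 genes averaged, in lean and in obese mice, against 113, 60 and 24 without pairing, and again no member. With background shares this small, a count of 0 out of 8 does not set the members apart. The comparisons share libraries, so that their values for 1 gene are not independent.

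What the libraries did set was a limit on how far the better measured members could differ between libraries as sequenced. These include obese ILC1 replicate 26, in which hepatocyte genes took 9.99% of counts. The shares of all tested genes given here are over genes of all levels. For ILC1 against NK cells averaged over diets, the 95% interval of the fold change lay within 2-fold in both directions for Casp1, Casp2, Casp8 and Cflar, 4 of the 8 members, against 25.1% of all tested genes. In lean mice the count was again 4 of 8, against 14.7%, and in obese mice it was 2, Casp8 and Cflar, against 14.6%. For obese against lean mice it was 3 in NK cells (Casp1, Casp8 and Cflar, against 19.4%) and 2 in ILC1 (Casp8 and Cflar, against 15.4%). For the difference between diets it was Casp8 alone, against 7.0%. For Casp4, Casp6, Casp9 and Apaf1 no interval lay within 2-fold in any comparison. For them a 2-fold change, upward, downward or both, was not excluded.

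The median log2 fold change of the 8 members for ILC1 against NK cells averaged over diets was -0.045, beside 0.036 over all tested genes. For obese against lean mice it was 0.047 in NK cells, beside 0.089, and 0.46 in ILC1, beside 0.020. Without obese ILC1 replicate 25 the ILC1 median was 0.25, and that averaged over diets was 0.014. Without obese ILC1 replicate 26 the ILC1 median was 0.31, and without lean NK replicate 27 the NK median was 0.14. In obese against lean ILC1, 5 members had a positive value and 3 a negative one.

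**Figure D1:**
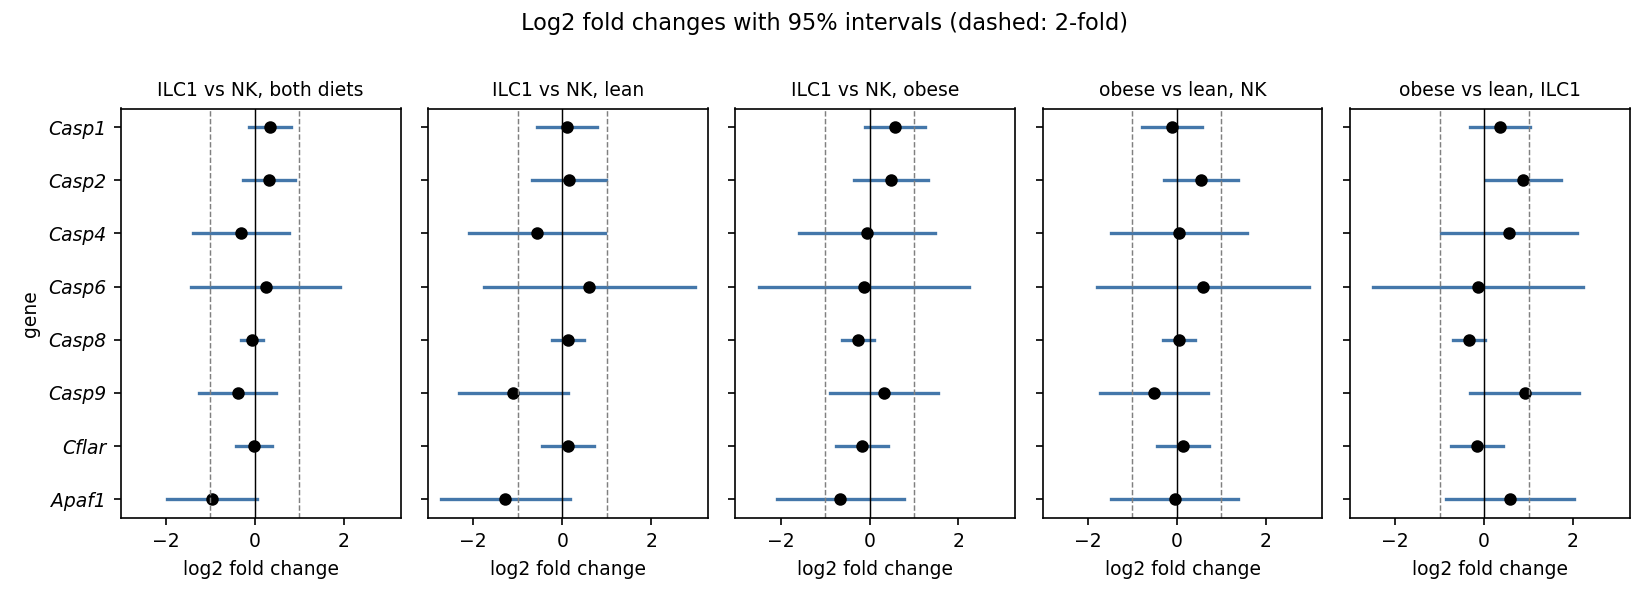
Log2 fold changes of the 8 genes (points) with 95% intervals (lines) from edgeR's quasi-likelihood test, for ILC1 against NK cells over both diets and in each diet, and obese against lean mice in each cell type, with dashed lines at 2-fold. Intervals of Casp8 and Cflar are the narrowest and those of Casp6 the widest, and the interval of Casp2 in obese against lean ILC1 is the one that leaves out 0, before adjustment.

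Each library held 1666637 to 2826766 counts over the genes analysed. Lists of genes used as markers were chosen with earlier results of these data known. Their shares therefore describe the libraries and are no independent test of the sort. The ILC1 list (Cxcr6, Cd200r1, Ccr8) took 0.222% to 1.44% of counts in ILC1 and 0.00337% to 0.0391% in NK cells. The NK list (Cma1, Cx3cr1, Chit1) took 0.322% to 0.595% in NK cells and 0.00541% to 0.105% in ILC1. Cma1 had 6668 to 9908 counts in NK cells and 35 to 660 in ILC1, and Chit1 had 29 to 346 and 0. Cx3cr1 had 1186 to 2466 counts in NK cells and 4 to 1773 in ILC1, with overlap through obese ILC1 replicate 26. The T cell list of 8 genes, whose CD3 and CD8α proteins were in the lineage exclusion, took 0.169% to 0.892% in ILC1 and 0.0135% to 0.0498% in NK cells. Of this list Cd3g had the most counts in each ILC1 library, and Cd8a was at 0 in ILC1 other than obese replicate 26. These shares also differed by diet among NK cells, without overlap. The ILC1 list took 0.00337% to 0.00728% in lean and 0.0131% to 0.0391% in obese NK cells. The NK list took 0.428% to 0.595% in lean and 0.322% to 0.390% in obese NK cells. For the T cell list the ranges nearly met, at 0.0135% to 0.023565% and 0.023621% to 0.0498%. In all, 3 libraries stood apart. In obese ILC1 replicate 26 the list of 11 hepatocyte genes took 9.99% of counts, against 0.00228% to 0.0607% elsewhere, and ILC1 markers were at their lowest share among ILC1. The 8 Kupffer cell genes together took 0.0953%, 1.45% and 0.115% of counts in obese ILC1 replicates 25, 26 and 27. All were above the 0.00920% to 0.0237% in lean ILC1, so that this summed share moved with diet in ILC1. Other lists also separated lean from obese ILC1 without overlap. The hepatocyte list took 0.0111% to 0.0132% in lean and 0.0179% to 9.99% in obese ILC1. For the endothelial list the shares were 0.00142% to 0.00369% and 0.00378% to 0.478%, and for the neutrophil list 0.0% and 0.00018% to 0.264%. The T cell list was lower in obese ILC1, at 0.169% to 0.656% against 0.754% to 0.892%. The Kupffer cell genes did not all move alike: in obese replicate 25, Cd68, Adgre1, Clec4f and C1qb had 745, 520, 250 and 74 counts. C1qa, C1qc, Cd5l and Csf1r were at 0 in that library. Lean NK replicate 27 had 1948 genes with a count and obese ILC1 replicate 25 had 2014, against 2478 to 3292 elsewhere. In these 2 libraries 144 and 173 genes, respectively, were at 3 counts or fewer while both other libraries of the group had at least 100, against 0 to 4 genes in the others. Values without these libraries are given beside those that they moved most, and their part in the results was otherwise not tested.

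Casp1 encodes caspase-1, the inflammasome protease that matures interleukin-1β and interleukin-18, and Casp4 encodes the mouse protein also known as caspase-11, which responds to cytosolic lipopolysaccharide. Both are on chromosome 9 and the plus strand, Casp1 at chr9:5298517-5307265 and Casp4 at chr9:5308828-5336783 (GRCm38, GENCODE annotation), with 1562 bases between them. Casp12, a further inflammatory caspase, follows 8646 bases downstream at chr9:5345430-5373032. The 3 neighbours differed widely in level. Levels between genes are compared per length, as CPM (counts scaled to a common total over the analysed genes, with TMM factors) divided by the exonic length in kb. On that scale the median over 12 libraries was 532 for Casp1, 52.6 for Casp4 and 0.045 for Casp12, which had 0 to 22 counts in any library. The median for Casp1 lay between 470 and 553 in each of the 4 groups, and that for Casp4 between 36.2 and 70.7.

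The 200 bases before the start of each of these 3 genes, clear of annotated exons, are shown 5′ to 3′ on the plus strand because the genes sit side by side and differ so much in transcript level (RefSeq promoter windows, GRCm38.p6). They cover chr9:5298317-5298516 for Casp1, chr9:5308628-5308827 for Casp4 and chr9:5345230-5345429 for Casp12.
Casp1: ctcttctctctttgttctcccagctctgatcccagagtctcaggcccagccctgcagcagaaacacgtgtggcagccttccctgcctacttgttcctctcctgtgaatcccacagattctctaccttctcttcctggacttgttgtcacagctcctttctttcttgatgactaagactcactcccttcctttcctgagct
Casp4: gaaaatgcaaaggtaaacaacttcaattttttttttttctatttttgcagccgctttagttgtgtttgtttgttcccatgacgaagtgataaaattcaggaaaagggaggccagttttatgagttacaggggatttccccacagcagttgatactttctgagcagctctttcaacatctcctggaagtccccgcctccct
Casp12: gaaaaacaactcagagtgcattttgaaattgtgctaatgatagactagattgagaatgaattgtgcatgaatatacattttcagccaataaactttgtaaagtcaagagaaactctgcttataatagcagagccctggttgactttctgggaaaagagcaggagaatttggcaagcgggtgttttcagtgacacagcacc

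A set of 4 short motifs was searched on both strands of such windows. They were the GC box GGGCGG, held by 31.05% of 32851 promoters, and the TATA box TATAAA (9.96%). The others were the interferon-stimulated response element core, GAAA followed after any 2 bases by GAAA (2.27%), and the ETS core CCGGAAG (6.29%). These percentages are from the 200 bases directly before each start, which were not cleared of exons. None of the 4 was present in these 3 windows, which are therefore printed without capitals, nor in that of Casp6. The RefSeq start used for Casp8 lies inside the gene span of the GENCODE annotation, downstream of its first start, and the window before it held none of the 4 either. Casp9 had 3 GC boxes, Casp2 had 1, and Cflar had the TATA box letters as overlapping matches on both strands. The window of Apaf1 lay wholly in annotated exons and was not searched. A match describes the letters in the window and not the use of a site.

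Casp1 had 1680, 1489 and 1556 normalized counts in lean NK cells of replicates 25, 26 and 27 and 1369, 1356 and 1570 in obese NK cells. In ILC1 the values were 1609, 1239 and 2202 in lean mice and 3385, 1658 and 1567 in obese mice. NK cells were thus tightly grouped, at 1503 ± 125 (SD, n = 6), and ILC1 more spread, at 1943 ± 772 (n = 6), with obese replicate 25 above all other libraries. The log2 fold change of ILC1 against NK cells averaged over diets was 0.34 (SE 0.22, 95% interval -0.14 to 0.81, adjusted p = 0.491), and 0.10 without obese ILC1 replicate 25. In obese mice it was 0.57 (SE 0.31, adjusted p = 0.46), and likewise 0.10 without that library. In bulk libraries of this kind, fewer cells that transcribe a gene and less RNA per cell cannot be told apart.

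Casp4 had 354, 366 and 488 normalized counts in lean NK cells and 433, 358 and 425 in obese NK cells. ILC1 had 140, 263 and 407 in lean mice and 50, 551 and 619 in obese mice. The 6 NK libraries stayed within 354 to 488, while ILC1 included both the lowest and the highest values. Obese ILC1 replicate 25, with 41 raw counts, was the lowest, and it was the same library in which Casp1 was highest. The log2 fold change for ILC1 against NK cells averaged over diets was -0.31 (SE 0.49, adjusted p = 0.864), with 4 of 6 mice lower in ILC1, and -0.051 without obese ILC1 replicate 25. The change from lean to obese ILC1 was 0.56 (SE 0.70, adjusted p = 0.87), 1.07 (adjusted p = 0.209) without obese replicate 25 and 0.33 without obese replicate 26.

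**Figure D2:**
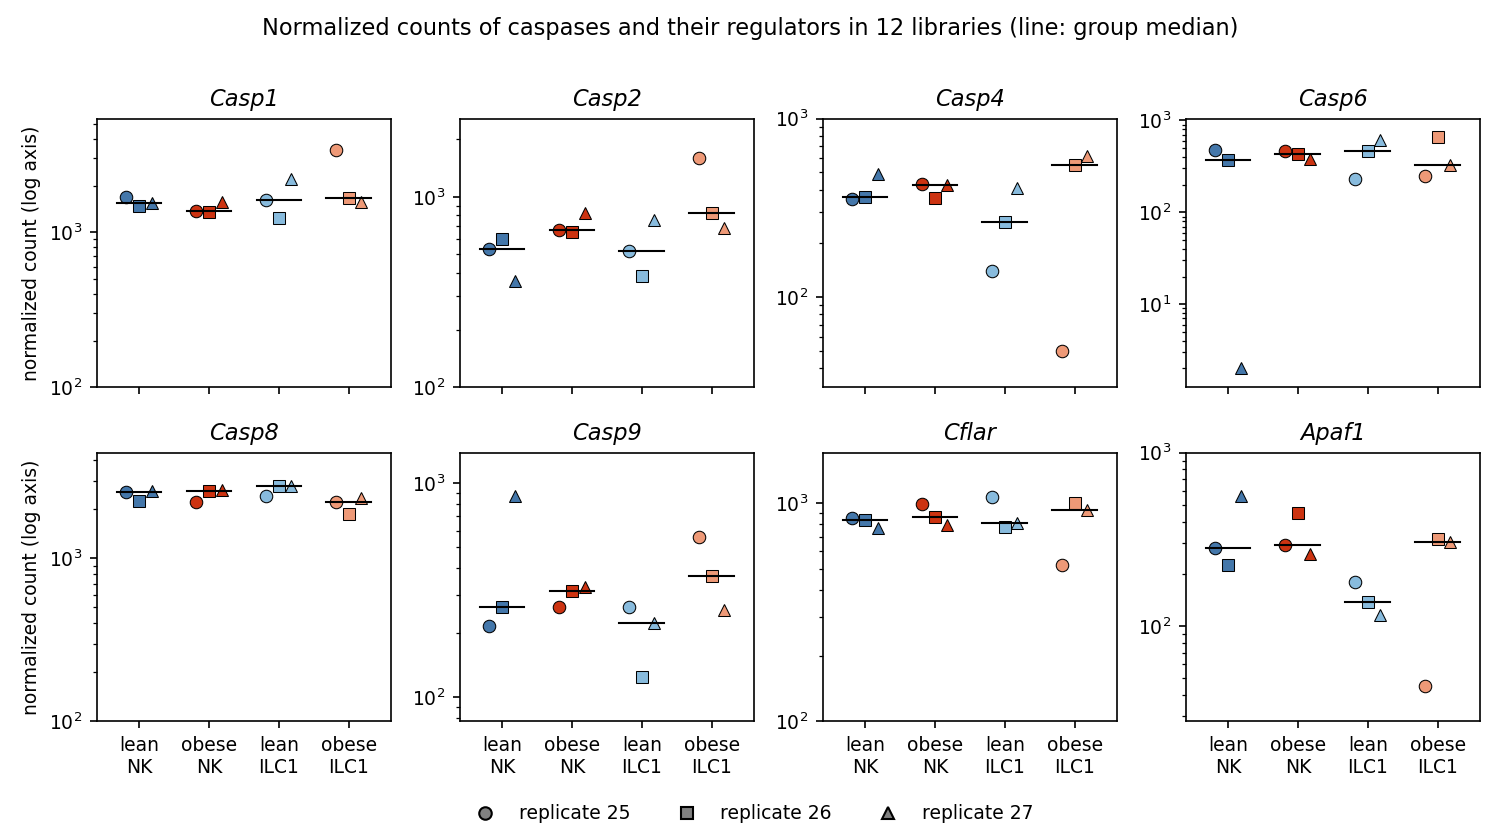
Normalized counts of each of the 8 genes (y axis, log scale) in every library, by group, with a symbol for each replicate number and a line at the group median. Casp8 lies between 1870 and 2793 in all 12 libraries, whereas Casp6 has 1 point at 2 in lean NK cells and Casp4 and Apaf1 each have 1 low point in obese ILC1, at 50 and 45.

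Casp8 encodes caspase-8, the initiator downstream of death receptors, and Cflar encodes c-FLIP, a caspase-8 relative without protease activity that binds it and limits its activation. The genes are neighbours on chromosome 1, Cflar at chr1:58711508-58758884 and Casp8 at chr1:58795374-58847503, both on the plus strand and 36489 bases apart. These were the most evenly expressed of the 8. Casp8 had 2553, 2250 and 2599 normalized counts in lean NK cells and 2238, 2590 and 2631 in obese NK cells. The ILC1 values were 2434, 2780 and 2793 in lean mice and 2230, 1870 and 2343 in obese mice. Raw counts of Casp8 ran from 1066 to 3925, and the normalized ones only over 1.49-fold.

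Casp8 averaged 2477 ± 182 in NK cells and 2408 ± 350 in ILC1 (SD, n = 6 each). Its log2 fold change for ILC1 against NK cells averaged over diets was -0.067 (SE 0.11, 95% interval -0.32 to 0.18, adjusted p = 0.873). Obese and lean NK cells differed by 0.047 (95% interval -0.31 to 0.40, adjusted p = 1.0). In ILC1 the 3 obese libraries all lay below the 3 lean ones, with group means of 2148 ± 247 and 2669 ± 204 (n = 3 each). This difference was -0.34 on the log2 scale (SE 0.16, 95% interval -0.69 to 0.013) and did not pass the test (edgeR unadjusted p = 0.0576, adjusted p = 0.487). Lower values without overlap were found for 7.94% of tested genes in that comparison. The summed shares of the Kupffer cell, hepatocyte, endothelial and neutrophil lists were higher in all 3 obese libraries, and that of the T cell list was lower. The part of these shares in the result was not tested. Without obese ILC1 replicate 26, the library with hepatocyte transcripts, the log2 fold change was -0.22, and without obese ILC1 replicate 25 it was -0.39. The ILC1 against NK change of Casp8 differed between diets by -0.39 (95% interval -0.89 to 0.11, adjusted p = 0.917).

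Cflar had 851, 838 and 769 normalized counts in lean NK cells and 987, 860 and 796 in obese NK cells. Among ILC1 it had 1065, 781 and 807 in lean mice and 519, 1002 and 927 in obese mice. The mean over 6 libraries was 850 in both cell types, with an SD of 75.5 in NK cells and 196 in ILC1. The log2 fold change for ILC1 against NK cells averaged over diets was -0.022 (SE 0.19, 95% interval -0.44 to 0.39, adjusted p = 0.984). For obese against lean mice it was 0.14 in NK cells (SE 0.27) and -0.16 in ILC1 (SE 0.27). Obese ILC1 replicate 25 was the lowest of all libraries, and the ILC1 value was 0.070 without it and -0.28 without obese ILC1 replicate 26.

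Casp8 had more raw counts than Cflar in every library. The ratio of their counts was 3.02 ± 0.346 in lean NK cells, 2.86 ± 0.535 in obese NK cells, 3.10 ± 0.712 in lean ILC1 and 2.90 ± 1.26 in obese ILC1 (SD, n = 3 each). Obese ILC1 held both the highest ratio, 4.30 in replicate 25, and the lowest, 1.87 in replicate 26. The ratio is not corrected for length: per kb of exon, the median level of Casp8 was 439 CPM and that of Cflar 33.9 CPM, with 2893 and 12669 bases of annotated exon over all transcripts.

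Apaf1 encodes the scaffold that binds cytochrome c and assembles the apoptosome, and Casp9 encodes caspase-9, the initiator that is activated on it. Apaf1 is at chr10:90989311-91082770 on the minus strand and Casp9 at chr4:141793612-141815976 on the plus strand. Casp9 overlaps Cela2a and Ctrc on the opposite strand, and whether counting used strand is not given in the sources used here. Apaf1 had 282, 223 and 562 normalized counts in lean NK cells and 293, 451 and 259 in obese NK cells. ILC1 libraries held 179, 137 and 116 in lean mice and 45, 316 and 305 in obese mice.

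The means of Apaf1 were 345 ± 132 in NK cells and 183 ± 108 in ILC1 (SD, n = 6 each), and ILC1 were lower in 5 of 6 mice. Its log2 fold change averaged over diets, -0.97 (SE 0.46, 95% interval -1.99 to 0.055), was the farthest from 0 among the members and had their lowest adjusted p in that comparison, 0.295 (edgeR unadjusted p = 0.0613). It was -0.74 without lean NK replicate 27, -0.73 without obese ILC1 replicate 25 and -1.13 without obese ILC1 replicate 26. In lean mice all 3 ILC1 libraries lay below all 3 NK libraries, as did 11.4% of tested genes, and the log2 fold change was -1.28 (SE 0.66, adjusted p = 0.477). Without lean NK replicate 27, which had the highest Apaf1 value, this became -0.81 (adjusted p = 0.849). In obese mice it was -0.65 (SE 0.65, adjusted p = 0.804), with overlap, and -0.18 without obese ILC1 replicate 25.

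Casp9 had 215, 264 and 865 normalized counts in lean NK cells and 265, 312 and 327 in obese NK cells. Its ILC1 values were 265, 124 and 223 in lean mice and 557, 367 and 256 in obese mice. Lean NK replicate 27 held more than 3 times the counts of either other lean NK library. The log2 fold change of ILC1 against NK cells was -1.11 in lean mice (SE 0.56, 95% interval -2.33 to 0.12, adjusted p = 0.457) and 0.33 in obese mice (SE 0.55, adjusted p = 0.913). The difference between the 2 diets, 1.43 (SE 0.78, 95% interval -0.29 to 3.16), was the farthest from 0 among the members but did not pass the test (edgeR unadjusted p = 0.0943, adjusted p = 0.896). Without lean NK replicate 27 the value in lean mice was -0.23 and the difference between diets 0.54, so that both rested largely on that library. The value in obese mice was -0.030 without obese ILC1 replicate 25.

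The counts of Casp9 stood at 0.69 to 1.92 times those of Apaf1 in 11 of 12 libraries. In obese ILC1 replicate 25 the ratio was 12.3, with 454 counts of Casp9 and 37 of Apaf1.

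Casp2 encodes caspase-2, an initiator-type caspase activated by a complex with the adaptor Cradd and linked to DNA damage and abnormal chromosome number. It is at chr6:42264985-42282508 on the plus strand. Casp2 had 534, 603 and 361 normalized counts in lean NK cells and 666, 654 and 825 in obese NK cells. The ILC1 libraries had 521, 383 and 754 in lean mice and 1607, 819 and 689 in obese mice. Obese libraries were higher than lean ones without overlap in NK cells, where the shares of the ILC1, NK and T cell lists also differed by diet. In ILC1 they were higher with overlap, and obese replicate 25 was far above the rest. There the Kupffer cell share and those of other lists also moved with diet. The part of these shares in the values was not tested.

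For obese against lean ILC1 the log2 fold change of Casp2 was 0.88 (SE 0.38, 95% interval 0.045 to 1.72). Of the 48 member values in the 6 comparisons it had the lowest unadjusted p from edgeR's quasi-likelihood test, 0.0407, and none of the others was under 0.05. Its adjusted p was 0.42. Without obese ILC1 replicate 25 it was 0.40 (adjusted p = 0.663), and without the hepatocyte-marked replicate 26 it was 1.06 (adjusted p = 0.43). Obese and lean NK cells differed by 0.55 (SE 0.38, 95% interval -0.28 to 1.39, adjusted p = 1.0), and 0.36 without lean NK replicate 27. Higher values without overlap were found for 9.9% of tested genes in that comparison. ILC1 and NK cells differed by 0.32 averaged over diets (SE 0.27, 95% interval -0.27 to 0.91, adjusted p = 0.643), and by 0.079 without obese ILC1 replicate 25.

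Casp6 encodes caspase-6, an executioner caspase that cleaves nuclear lamin A, and is at chr3:129901425-129914103 on the plus strand. Casp6 had 481, 374 and 2 normalized counts in lean NK cells and 461, 430 and 382 in obese NK cells. ILC1 gave 232, 469 and 613 in lean mice and 248, 653 and 331 in obese mice. The value in lean NK replicate 27 came from 2 raw counts, and Casp6 was 1 of the 144 genes at or near 0 in that library alone of its group. The other 11 libraries lay between 232 and 653.

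The log2 fold change of Casp6 in ILC1 against NK cells averaged over diets was 0.25, with the widest error among the members (SE 0.76, 95% interval -1.43 to 1.92, adjusted p = 0.934). It was -0.056 without lean NK replicate 27 and 0.0024 without obese ILC1 replicate 26. In lean mice it was 0.61 (SE 1.08) with all libraries and 0.028 without lean NK replicate 27. Between obese and lean NK cells it was 0.59 (SE 1.08) with all libraries and 0.015 without that library. Obese and lean ILC1 differed by -0.14 (SE 1.08, adjusted p = 0.985).

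Per kb of exon, the 8 members fell in the order Casp1 (532 CPM per kb, median over 12 libraries), Casp8 (439), Casp4 (52.6), Casp2 (48.2), Casp6 (37.8), Cflar (33.9), Casp9 (26.2) and Apaf1 (15.4). The step from Casp8 to Casp4 was the only one between neighbours in this order whose ranges over the libraries did not overlap. Casp1 was above Casp8 in 11 of 12 libraries and Casp9 above Apaf1 in 12 of 12, although the ranges overlapped. Casp4 was above Casp2 in 9 of 12 libraries and Casp2 above Casp6 in 8 of 12, so that these neighbours did not differ beyond their spread. Exonic lengths cover all annotated transcripts, and the isoforms used were not measured, so that a gene with long rarely used exons is placed too low.

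**Figure D3:**
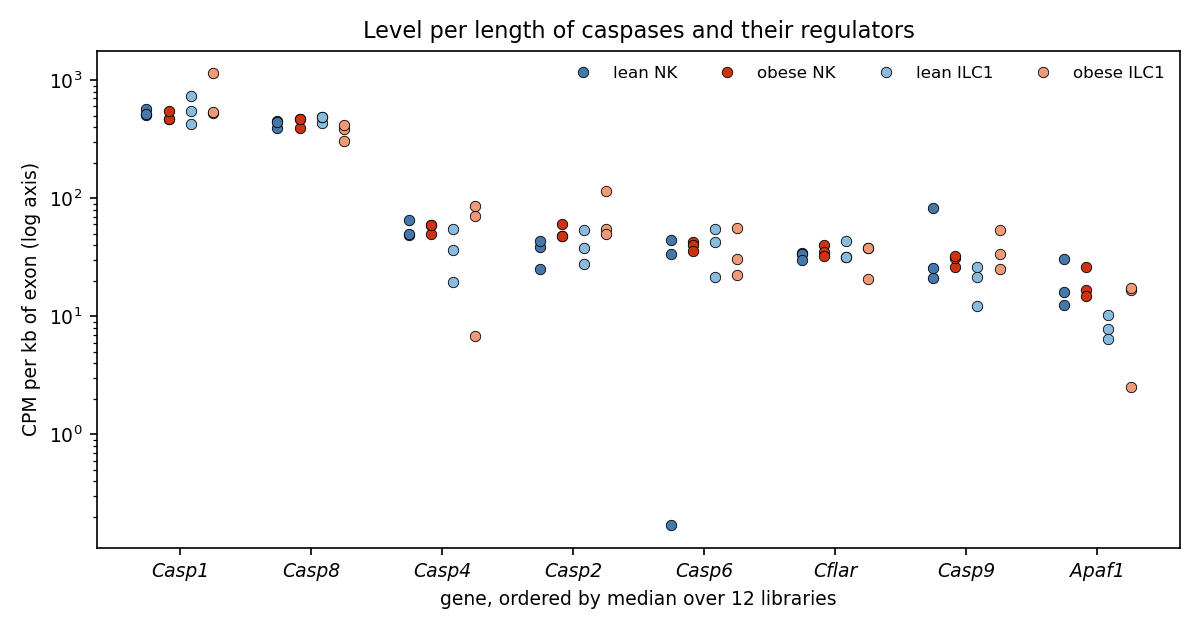
Level of each gene as CPM per kb of annotated exon (y axis, log scale), 1 point per library coloured by group, for the 8 members in order of their medians. Casp1 and Casp8, with medians of 532 and 439, stand above all others, and the lowest point is Casp6 in lean NK replicate 27.

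The members differed widely in their spread over the 12 libraries. The SD of log2 CPM was 0.19 for Casp8, 0.27 for Cflar, 0.38 for Casp1, 0.56 for Casp2, 0.68 for Casp9, 0.95 for Apaf1, 0.99 for Casp4 and 2.00 for Casp6. The median SD over the 2606 tested genes was 1.35, and 32 of them (1.23%) had a smaller SD than Casp8, and 140 (5.37%) a smaller one than Cflar. These shares are over genes of all levels, and genes of like level were not compared apart. Leaving out lean NK replicate 27 took the SD of Casp6 to 0.46 and that of Casp9 to 0.52. Leaving out obese ILC1 replicate 25 took Casp4 to 0.56, Apaf1 to 0.67, Casp2 to 0.40 and Casp1 to 0.21. Mean log2 CPM, not divided by length, ran from 10.27 for Casp8 to 6.84 for Apaf1.

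**Figure D4:**
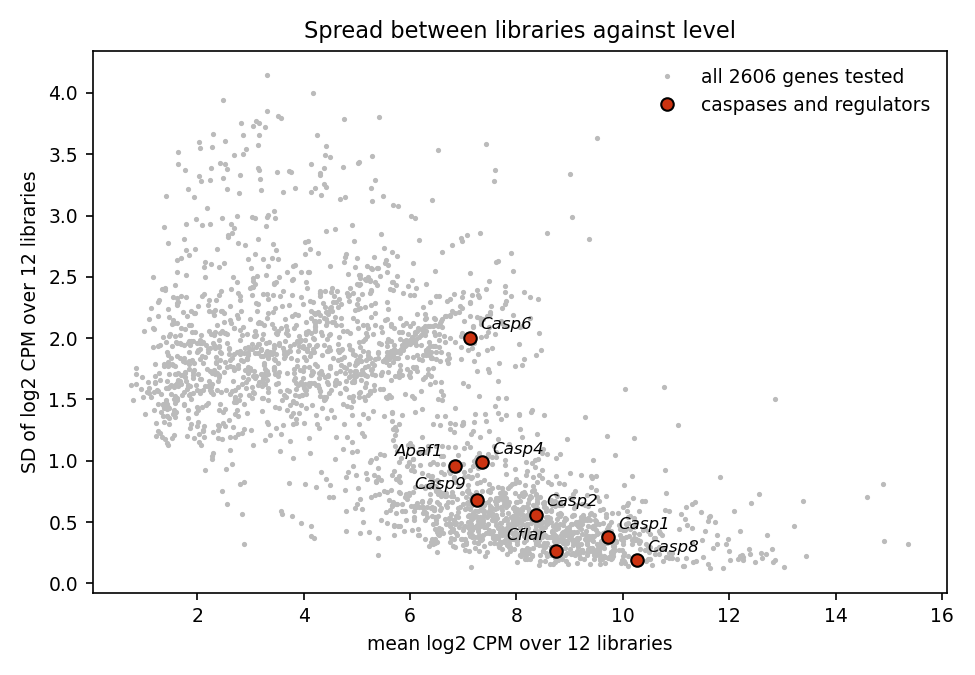
SD of log2 CPM over the 12 libraries (y axis) against mean log2 CPM (x axis) for the 2606 tested genes (grey) and the 8 members (coloured, named). Casp8 and Cflar lie at the lower edge of the cloud, with SDs of 0.19 and 0.27, and Casp6 at 2.00 lies in its upper part.

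The other genes of caspase control were taken from a list of 35, of which 34 were in the table and 27 were tested. None was called in any of the 6 comparisons, in either direction. The list covers other caspases, adaptors with caspase recruitment domains, inhibitors of apoptosis, the mitochondrial step, ubiquitin enzymes that act on caspase-8 complexes, and substrates. For ILC1 against NK cells averaged over diets, 8 of the 27 had a positive and 19 a negative log2 fold change, with a median of -0.21, beside 1367 positive, 1239 negative and a median of 0.036 over all tested genes. An unadjusted p under 0.05 was found for 5 of the 27 (18.5%), beside 19.0% of all tested genes. The lowest adjusted p, 0.0543, was that of Arhgdib, named after its values were seen, at -0.35 (SE 0.093). Its 95% interval, -0.55 to -0.14, lay wholly within 2-fold, so that it was far from the fold change a call needed.

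The 7 listed genes that did not pass the filter were Casp14, Card9, Card14, Birc7, Cidea, Cideb and Cidec. Of these, Cideb, a lipid droplet protein gene of hepatocytes, had 135 counts and Card9, a myeloid signalling adaptor gene, 20 counts in obese ILC1 replicate 26 and 0 in every other library. That is the library in which hepatocyte and Kupffer cell lists took 9.99% and 1.45% of counts.

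Genes among the most like each member over the 12 libraries, by Pearson's r of log2 CPM among 1639 genes with a mean log2 CPM of at least 5, are given as a description, since the libraries share their mice, groups and depth. For Casp1 they were Ccdc69 (r = 0.921) and Cdk5 (0.893), and for Casp2 C330018D20Rik (0.925) and Chordc1 (0.871). For Casp4 they were Aldh16a1 (0.974) and Cpne3 (0.937), and for Apaf1 Camk2d was among them (0.913). For Casp6 they were Acbd5 (0.989) and Brd7 (0.982), and for Casp9 Cox4i1 (0.899) and Bcor (0.895). For Casp8 they were 4933427D14Rik (0.866) and Ccnd2 (0.849), and for Cflar Bcl10 (0.912) and Camta2 (0.904). Without the 3 libraries that stood apart, over the remaining 9, r was 0.945 for Casp4 with Aldh16a1 and 0.864 for Casp4 with Cpne3. The other 13 pairs given here ranged from 0.404 to 0.778, with Casp6 and Acbd5 at 0.618.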

How the data were processed

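NK cells and ILC1 of 3 lean and 3 obese mice were sequenced. According to the submitters' processing notes, bcl2fastq 2.19, Trimmomatic 0.36.5, STAR 2.5.2b and featureCounts 1.6.0.2 were used with mm10; the annotation and the counting options are not given in the sources used here. The authors deposited whole-number counts per gene and, beside them, a normalized score: these counts divided by 1 factor per library (0.57 to 1.516) and rounded, called normalized counts here. The 5545 genes analysed run alphabetically to Cyp26b1; totals per library cover these genes only and understate the depth. A row with missing values (1) was dropped.

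All 12 libraries entered 1 edgeR model of the 4 groups on raw counts (edgeR 4.0.16 under R 4.3.3, with filterByExpr, TMM factors and quasi-likelihood F tests), and DESeq2 1.42.0 was an alternative. Each SE is |log2 fold change| over the square root of F, and 95% intervals used the t distribution on the fit's degrees of freedom. Tests were two-sided and were tested on simulated counts in which 200 of 2606 genes differed 8-fold between ILC1 and NK cells. Of the changed genes it tested, edgeR called 60.1%, with 9 unchanged genes called. DESeq2 called 80.6%, with 27 unchanged genes called. Changes of other sizes were not simulated, so these rates do not give the detection of changes nearer to 2-fold. CPM used a prior count of 2 where logged. NK cells and ILC1 of 1 diet and number came from the same mouse by the study's design; their deviations from group means correlated at -0.076 to 0.141 (Pearson, 6 mice). Alternatives were DESeq2, other scalings and filters, only the libraries compared, the mouse or the number as a block, and each library left out. No 2 libraries were identical.

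Genes named are the 8 members, listed pathway genes that were called (none), and the 2 genes most correlated with each member; some genes under this rule are not reported here. Members and lists were chosen with earlier results of these data known. Positions are from GENCODE M21 (GRCm38), matched by symbol.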

Additional observations from a re-analysis of the deposited data

How the results depend on the processing

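None of the 8 genes was called under any of 23 alternatives, and the lowest adjusted p of a member under any of them was 0.136, for Apaf1 in lean mice without obese ILC1 replicate 25. Of 986 log2 fold changes of members under alternatives, 931 kept the sign of the reported value and 55 had the other sign, 29 of them with 1 library left out. The cause was not tested. Calls over all genes ranged from 46 to 245 for ILC1 against NK cells averaged over diets (113 as reported), 21 to 219 in lean mice (60), 0 to 154 in obese mice (24), 0 to 8 for diet in NK cells, 0 to 77 for diet in ILC1 and 0 to 21 for the difference between diets (0 as reported for all 3). With NK cells and ILC1 paired by mouse (replicate block), 46, 21 and 0 genes were called averaged, in lean and in obese mice, and 0 members. With the replicate number as a block, which lean and obese mice share without being the same animals (their deviations correlated at -0.014 to 0.077), 0 members were called.

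Values of the other sign follow, as log2 fold changes. Without lean NK replicate 27 and obese ILC1 replicate 26, ILC1 against NK cells gave -0.29 for Casp6 and 0.072 for Casp9 averaged over diets and -0.065 for Casp2 in lean mice, obese against lean NK cells gave 0.35 for Casp9 and 0.42 for Apaf1, and the difference between diets gave -0.13 for Apaf1. Leaving out obese ILC1 replicate 25 as well, a choice made after seeing the data, gave -0.065 for Casp2, 0.080 for Casp4, -0.18 for Casp6, 0.016 for Casp8 and 0.054 for Cflar averaged over diets. It gave -0.045 for Casp2 in lean mice, and in obese mice -0.084 for Casp2, 0.58 for Casp4, -0.26 for Casp9 and 0.042 for Cflar. It gave 0.38 for Casp9 and 0.45 for Apaf1 for obese against lean NK cells, -0.085 for Casp1 and 0.084 for Cflar in ILC1, and -0.039 for Casp2 and -0.034 for Casp9 for the difference. The authors' factors gave 0.0004 for Cflar averaged and 0.0051 for Casp4 in obese mice, and at least 10 counts in every library gave 0.018 and 0.022 and left Casp6 without a value.

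With each library left out in turn, the values that crossed 0 ranged averaged over diets from -0.056 to 0.55 for Casp6, -0.57 to 0.043 for Casp9 and -0.11 to 0.092 for Cflar. They ranged in lean mice from -0.12 to 0.26 for Casp1, -0.12 to 0.33 for Casp2 and -0.036 to 0.19 for Cflar. They ranged in obese mice from -0.54 to 0.46 for Casp4, -0.59 to 0.13 for Casp6, -0.030 to 0.55 for Casp9 and -0.32 to 0.060 for Cflar. They ranged for obese against lean NK cells from -0.031 to 0.20 for Casp4, -0.014 to 0.11 for Casp8, -0.85 to 0.36 for Casp9 and -0.32 to 0.43 for Apaf1. They ranged for obese against lean ILC1 from -0.11 to 0.58 for Casp1, -0.59 to 0.16 for Casp6 and -0.29 to 0.070 for Cflar. They ranged for the difference between diets from -0.0055 to 0.69 for Casp1 and -0.15 to 0.61 for Casp2.

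With 3 mice per diet, detection was limited: for Casp4, Casp6, Casp9 and Apaf1 a 2-fold change, upward, downward or both, was within the 95% interval in each comparison. Totals cover only the genes analysed.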
